A study of Mus musculus with 6 samples.

Results

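The genes described here carry the adrenergic signal of the heart from the cell surface to protein kinase A. They are 9 rows of the deposited gene table, picked by symbol with no measured value in the rule: the receptors Adrb1, Adra1a and Adra1b, the G protein gene Gnas, the cyclases Adcy5 and Adcy6, the kinase subunits Prkaca and Prkar1a, and the phosphodiesterase Pde3a. The choice was nonetheless made with earlier results of these data known. All 9 were found among 49585 rows, and all 9 passed the filter on low counts that left 9124 genes to test.

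Ribosome profiling, which sequences the mRNA pieces covered by ribosomes after nuclease digestion, was run on hearts of male mice aged 8 or 9 weeks. The 3 libraries labelled PG (partial gravity) came from mice bought from Charles River Laboratories Japan and kept under lunar gravity (0.167 g) on the lower cage floor of a centrifuge (31 rpm, radius 15 cm) in flight. The labels name a strain for the control mice alone. The 3 libraries labelled GC (ground control) came from mice at 1 g; per the labels these were C57BL/6 J mice of matching age, 6 per mission, kept on the ground in conditions like those of the space station. PG and GC therefore differ in spaceflight as well as in gravity, and these cannot be told apart. The labels do not tie a library to 1 animal or to a mission, so the tests measure the spread between these samples. No matched RNA-seq was used, so a value joins the amount of an mRNA and its translation, and in whole heart tissue fewer cells of a type and less RNA per cell cannot be told apart.

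Noradrenaline and adrenaline drive the heart mainly through the beta-1 receptor, which couples to the stimulatory G protein Gs. Gs switches on adenylyl cyclase, and the cAMP it makes releases the catalytic subunits of protein kinase A (PKA) from their regulatory subunits. PKA then phosphorylates calcium-handling and contractile proteins, and phosphodiesterases end the signal by breaking down cAMP. Alpha-1 receptors use another G protein, Gq, and are known in heart muscle for effects on growth and contraction.

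The libraries held 2212473 to 3196070 exon reads, of which the rows Lars2 and Tmem38b took 45.5% to 52.5%. The highest share was that of PG replicate 3, which also stood furthest from the other libraries of its group. Levels are given as CPM, the exon reads of a row scaled to library size with TMM factors, and differences as log2 fold changes of PG minus GC from edgeR's quasi-likelihood test. Of 12 ventricular cardiomyocyte markers all had reads, and their summed level was 54724 to 61305 CPM in GC and 44802 to 52195 in PG, so the groups did not overlap. Such a sum is weighted to the most read genes, and the list did not move as one. Of the 12, 3 were called lower and 0 higher (adjusted p below 0.05, edgeR). Actc1 was at 12797, 12029 and 10526 CPM in GC replicates 1, 2 and 3 and 5385, 7258 and 8175 in PG. Pln had a positive log2 fold change of 0.37, and Ryr2 was at -0.04. Among 9 sympathetic neuron markers, Th, Npy, Prph, Chga and Chgb had 0 reads in all libraries, and the list summed to 8.70 to 11.6 CPM in GC and 3.66 to 7.98 in PG. The endothelial list (672 to 742 CPM in GC, 595 to 648 in PG) and the fibroblast list (590.4 to 649 and 553 to 559.6) were also lower in every PG library. Kidney markers summed to 23.0 to 35.2 CPM in GC and 0.318 to 7.98 in PG, and liver markers to 17.4 to 141.0 and 4.77 to 15.0. The part of these marker differences in the results on the 9 genes was not tested.

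Of the 9 genes, 0 were called higher and 0 lower at an adjusted p below 0.05 (edgeR), where 0.581% of all tested genes were called (0.252% higher and 0.329% lower), and the adjusted p-values ran from 0.439 to 0.866. At an unadjusted p under 0.05 there were 3 of 9, Prkar1a, Pde3a and Adra1a, all with positive values, against a background of 10.4% of tested genes (4.82% higher and 5.62% lower). That count was 0 on total gene reads, 5 on unique exon reads, and 1 without GC replicate 1, GC replicate 2 or PG replicate 2. These counts come from separate fits, and the 10.4% is of the main fit alone, so it is no background for them. DESeq2 gave an adjusted p for 6 of the 9 and called 0, where it called 5.58% of the 2150 genes to which it gave one. The log2 fold changes were positive for 6 and negative for 3, where 49.8% of tested genes had a positive value. They ran from -0.51 (Adra1b) to 0.85 (Adra1a), with a median of 0.27 against 0.00 (-0.0017 before rounding) for all tested genes. The 3 GC and the 3 PG values did not overlap in 3 of the 9, Adcy5, Prkar1a and Gnas, and a gap of this kind occurred in 16.3% of tested genes.

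**Figure D1:**
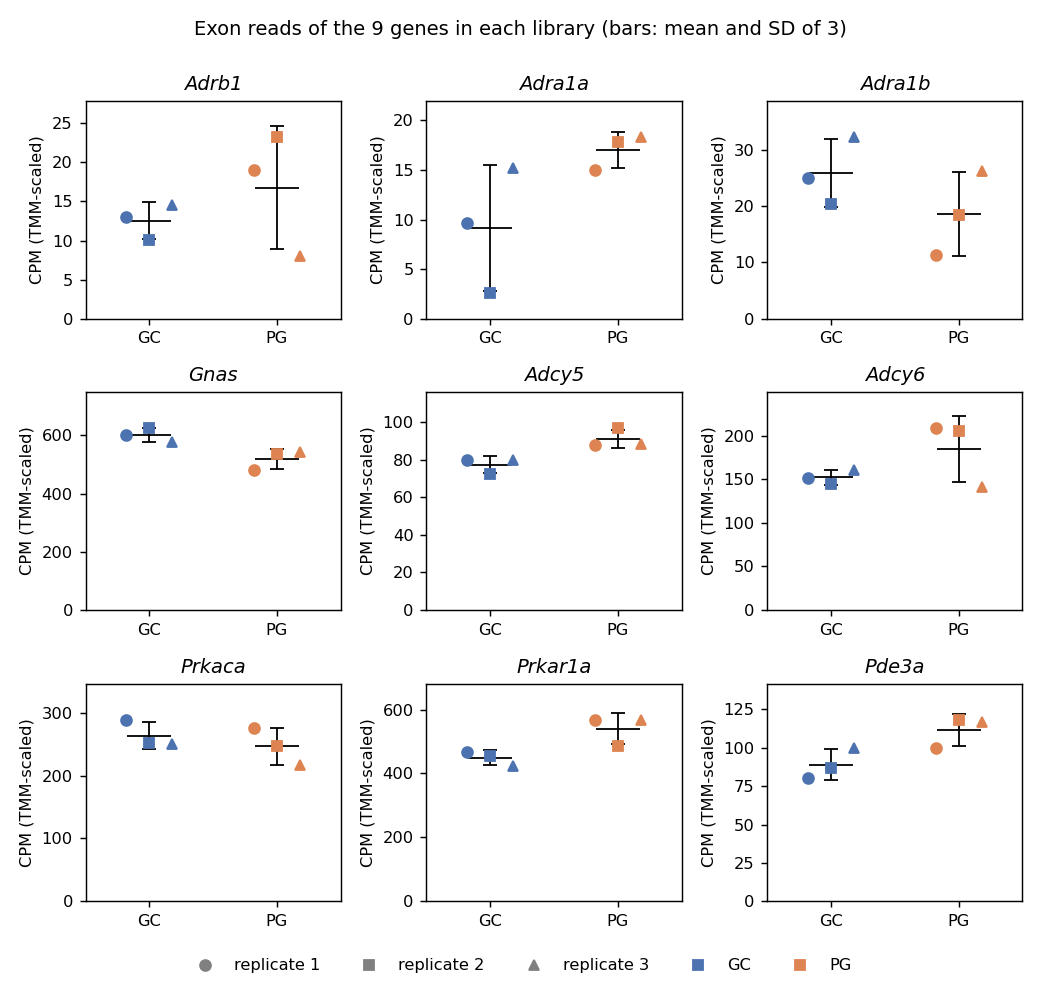
Exon reads in CPM (vertical axes from 0) of the 9 genes in the 3 GC and 3 PG libraries, with a symbol for each replicate number and bars for mean and SD. Adcy5 and Prkar1a lie higher in all 3 PG libraries than in any GC library, Gnas lies lower, and the other 6 overlap.

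Adrb1 encodes the beta-1 receptor, the main adrenergic receptor of cardiomyocytes. Its row lies at chr19:56722372-56724862 in the files' coordinates, for which the submitters' processing notes list GRCm38 and mm10. It held few reads: 27, 23 and 47 in GC replicates 1, 2 and 3 and 57, 73 and 17 in PG replicates 1, 2 and 3. On the CPM scale these were 13.0, 10.01 and 14.6 in GC and 19.0, 23.2 and 7.98 in PG. PG replicates 1 and 2 lay above every GC library and PG replicate 3 lay below every one, so the groups overlapped. On the log2 scale PG minus GC was 0.43 ± 0.34 (SE; 95% interval -0.27 to 1.14; adjusted p 0.723, edgeR). Without PG replicate 3 it was 0.74, and without PG replicate 2 it was 0.12.

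Adra1a (chr14:66635251-66733462) and Adra1b (chr11:43774606-43901210) encode the alpha-1 receptors of heart muscle. Adra1a stood at 9.63, 2.61 and 15.2 CPM in GC replicates 1, 2 and 3 and at 15.0, 17.8 and 18.3 CPM in PG replicates 1, 2 and 3. GC replicate 2 was far below the rest: it had 6 Adra1a reads, with a Poisson interval of 2.20 to 13.1 for counting error only, where the other libraries had 20 to 56. The log2 fold change of 0.85 ± 0.40 (SE; 95% interval 0.03 to 1.66; adjusted p 0.455, edgeR) moved with 2 of the GC libraries: it was 0.42 without GC replicate 2, the lowest, and 1.49 without GC replicate 3, the highest.

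Adra1b had its values the other way round, at 25.0, 20.5 and 32.3 CPM in GC replicates 1, 2 and 3 and 11.3, 18.5 and 26.3 CPM in PG replicates 1, 2 and 3. The groups overlapped through PG replicate 3, the highest of its group. Its log2 fold change was -0.51 ± 0.29 (SE; 95% interval -1.10 to 0.08) with an adjusted p of 0.557 (edgeR). It was -0.24 without PG replicate 1, -0.31 without GC replicate 3 and -0.81 without PG replicate 3.

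The balance of the 2 alpha-1 receptors was also read within each library, as Adra1b over Adra1a in exon reads per kb of exon, which does not depend on library scaling. Adra1b was 6.26, 18.9 and 5.11 times Adra1a in GC replicates 1, 2 and 3 and 1.82, 2.49 and 3.46 times in PG replicates 1, 2 and 3. The size of these ratios rests on the annotated exon lengths, 3382 bases for Adra1b and 8144 for Adra1a, the same in every library. In exon reads Adra1b had 52, 47 and 104 in GC replicates 1, 2 and 3 and 34, 58 and 56 in PG. Adra1a had 20, 6 and 49 in GC and 45, 56 and 39 in PG. All 3 GC ratios were above all 3 PG ratios. The mean log2 ratio was 3.08 ± 1.01 in GC and 1.32 ± 0.46 in PG (SD, n = 3), a difference of -1.76, with p = 0.10 in a two-sided exact permutation test. That is the smallest p that 3 against 3 libraries allow, and it was 0.15 after adjustment over the 3 ratios compared. Without GC replicate 2 the difference was -1.18.

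The other adrenergic receptor rows had few reads. Of 9 receptor genes in the list, 8 had a read and 4 were tested, 0 of them called. Adra1d, the remaining alpha-1 receptor, averaged 6.00 ± 1.48 CPM in the GC and 3.93 ± 1.37 in the PG libraries (SD, n = 3), with a log2 fold change of -0.59 ± 0.52 (SE).

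Gnas (chr2:174284320-174346744) encodes the alpha subunit of Gs and is an imprinted locus with several alternative first exons. It stood at 603, 624 and 578 CPM in GC replicates 1, 2 and 3 and at 479.7, 537 and 543 CPM in PG replicates 1, 2 and 3. The 3 PG values lay below the 3 GC values, as in 8.25% of tested genes. The difference was 1.16-fold, a log2 fold change of -0.21 ± 0.12 (SE; 95% interval -0.45 to 0.03) with an adjusted p of 0.557 (edgeR). Only 19.1% of its exon reads fitted a single place, against 67.0% of exon reads pooled over all rows, Lars2 and Tmem38b included. Of the Gnas exon reads 31.8% crossed an exon junction. On the unique reads alone the log2 fold change was -0.37, with an adjusted p of 0.322 (edgeR). The row Gm20721 overlaps the locus and held 184 reads against 8831 for Gnas, and whether reads were counted by strand is not known here.

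Adcy5 (chr16:35154877-35305737) and Adcy6 (chr15:98589994-98607633) encode the main adenylyl cyclases of cardiomyocytes, both inhibited by calcium. Adcy5 stood at 80.0, 72.2 and 80.2 CPM in GC replicates 1, 2 and 3 and at 88.2, 96.8 and 88.8 CPM in PG replicates 1, 2 and 3. Its PG values all lay above its GC values, as in 8.06% of tested genes. The estimate was 0.24 ± 0.15 on the log2 scale (SE; 95% interval -0.07 to 0.54) with an adjusted p of 0.609 (edgeR).

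Adcy6 was near 151, 144 and 161 CPM in GC replicates 1, 2 and 3. In PG it was 208 and 205 CPM in replicates 1 and 2 but 141 in replicate 3, which lay below every GC library. The log2 fold change was 0.29 ± 0.15 (SE; 95% interval -0.02 to 0.59) with an adjusted p of 0.515 (edgeR), and leaving out PG replicate 1, 2 or 3 gave 0.19, 0.20 or 0.44. Adcy6 exceeded Adcy5 per kb of exon in each library, by 2.20, 2.32 and 2.34 times in GC replicates 1, 2 and 3 and by 2.75, 2.47 and 1.85 times in PG replicates 1, 2 and 3. The mean log2 ratio was 1.19 ± 0.05 in GC and 1.22 ± 0.29 in PG (SD, n = 3), with p = 1 in the two-sided exact permutation test. PG replicate 3 was the lowest PG library for Adrb1, Adcy6 and Prkaca, and the highest for Adra1a, Adra1b, Gnas and, by a small margin, Prkar1a.

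Prkar1a (chr11:109649405-109669656) encodes the type I alpha regulatory subunit, which holds PKA inactive until cAMP binds, and Prkaca (chr8:83972993-83996443) encodes the main catalytic subunit. Prkar1a stood at 469, 455 and 424 CPM in GC replicates 1, 2 and 3 and at 568, 484 and 568 CPM in PG replicates 1, 2 and 3, with no overlap. Its log2 fold change was 0.27 ± 0.12 (SE; 95% interval 0.02 to 0.52), or 1.20-fold, with an adjusted p of 0.439 (edgeR), the smallest of the 9. Prkar1a is the best measured of the 9 on single-place reads, since all 7820 of its exon reads were unique.

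Prkaca stood at 289, 252 and 249.9 CPM in GC replicates 1, 2 and 3 and 275, 247 and 217 CPM in PG replicates 1, 2 and 3. The log2 fold change was -0.09 ± 0.13 (SE; 95% interval -0.36 to 0.17) with an adjusted p of 0.866 (edgeR). That interval reaches a 1.29-fold fall and a 1.13-fold rise.

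Within a library, Prkar1a per kb of exon was 0.935, 1.04 and 0.978 times Prkaca in GC replicates 1, 2 and 3 and 1.19, 1.13 and 1.50 times in PG replicates 1, 2 and 3. All 3 PG ratios were above all 3 GC ratios. The mean log2 ratio was -0.03 ± 0.08 in GC and 0.34 ± 0.22 in PG (SD, n = 3), a difference of 0.36 or 1.29-fold, with p = 0.10 in the two-sided exact permutation test and 0.15 after adjustment over the 3 ratios. PG replicate 3 had the largest ratio, and without it the difference was 0.24.

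**Figure D2:**
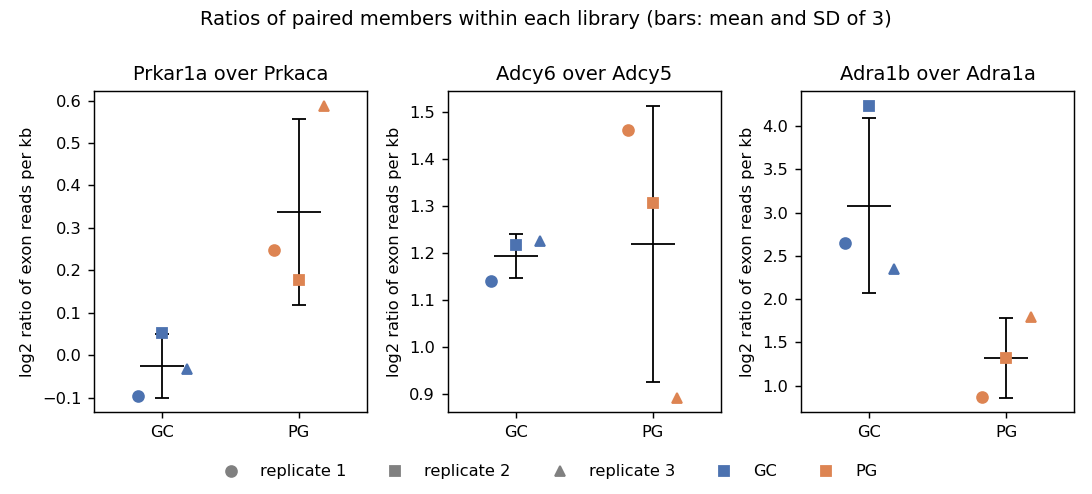
Log2 ratios of exon reads per kb of exon (vertical axes, each with its own range) within each GC and PG library, with a symbol for each replicate number and bars for mean and SD. The groups are apart for Prkar1a over Prkaca (higher in PG) and for Adra1b over Adra1a (lower in PG) and overlap for Adcy6 over Adcy5.

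The start regions of these PKA genes are shown because cAMP acts on transcription through CREB, a factor that binds the palindrome TGACGTCA, the cAMP response element. The windows are RefSeq's for GRCm38.p6, 300 bases each, with 250 bases before an annotated start and 50 from it on, written 5′ to 3′ on the plus strand. Capitals mark the full element or its 5-base core, TGACG or its reverse complement CGTCA, which the full element also contains.
Prkar1a, chr11:109650699-109650998: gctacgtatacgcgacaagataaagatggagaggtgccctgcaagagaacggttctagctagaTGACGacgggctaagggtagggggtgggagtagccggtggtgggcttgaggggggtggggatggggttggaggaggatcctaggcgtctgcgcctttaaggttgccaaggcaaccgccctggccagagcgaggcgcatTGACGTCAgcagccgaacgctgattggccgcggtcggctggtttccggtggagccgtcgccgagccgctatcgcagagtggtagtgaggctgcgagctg
Prkaca, chr8:83972728-83973027: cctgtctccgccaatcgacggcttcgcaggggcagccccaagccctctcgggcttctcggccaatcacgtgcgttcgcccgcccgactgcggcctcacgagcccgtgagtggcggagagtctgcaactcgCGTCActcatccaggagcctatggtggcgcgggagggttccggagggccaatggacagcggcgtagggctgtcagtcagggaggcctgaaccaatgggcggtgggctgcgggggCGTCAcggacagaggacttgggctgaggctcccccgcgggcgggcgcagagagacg

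The Prkar1a window holds 1 full element, which begins 49 bases before the start site and lies at chr11:109650900-109650907, and 1 further core outside it. The Prkaca window holds 2 cores, at 120 and 6 bases before its start site, and no full element. RefSeq windows matched 6 of the 9 genes, 16 windows in all, without Adra1a, Adcy6 and Pde3a. A full element was found in 2 of these, overlapping windows of Prkar1a that share the same copy, and 6 others held cores alone: 1 of Prkar1a, 1 of Prkaca, 1 of Adrb1 and 3 of Gnas. The remaining 8 held neither, among them further windows of Prkar1a and the other window of Prkaca. The windows shown were among those with a match. Of all 32851 windows 1.79% held the full element and 20.8% held a core, counting those inside a full element. These are matches of letters and say nothing of binding in these hearts.

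Pde3a (chr6:141249269-141507448) encodes a cAMP phosphodiesterase that is inhibited by cGMP and is the target of the heart drug milrinone. It stood at 80.0, 87.0 and 100.1 CPM in GC replicates 1, 2 and 3 and at 99.8, 118 and 117 CPM in PG replicates 1, 2 and 3. The highest GC value and the lowest PG value nearly coincide, and the other PG values were above every GC value. The log2 fold change was 0.32 ± 0.15 (SE; 95% interval 0.01 to 0.63), or 1.25-fold, with an adjusted p of 0.447 (edgeR).

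**Figure D3:**
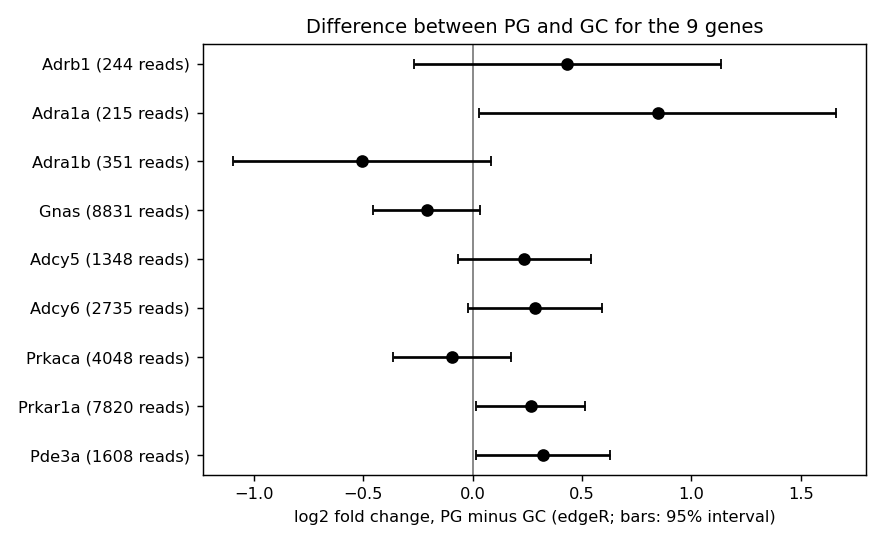
Log2 fold changes of PG minus GC from edgeR (horizontal axis) with 95% intervals for the 9 genes, each labelled with its exon reads over the 6 libraries. The intervals of the 3 receptors, with 215 to 351 reads, are wider than those of the other 6 genes, with 1348 to 8831 reads.

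The precision followed the reads. For the 6 genes below the receptors, which had 1348 to 8831 exon reads each, the upper ends of the 95% intervals were at most 1.54-fold higher in PG and the lower ends at most 1.37-fold lower. For the receptors, with 215 to 351 reads, the intervals reached 2.20-fold higher for Adrb1, 3.16-fold higher for Adra1a and 2.14-fold lower for Adra1b. In the authors' deposited table the signed fold changes of the 9 genes ran from -1.41 (Adra1b) to 1.82 (Adra1a), and the FDR-corrected p was 1 for each.

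Per length of exon, the PKA subunits were read most. As CPM per kb of exon over the 6 libraries, Prkar1a averaged 114 (98.2 to 131) and Prkaca 102 (87.4 to 116), and the ranges of this pair overlapped. Gnas followed at 50.1 (42.9 to 55.8), then Adcy6 at 28.0 (23.5 to 34.6) and Adcy5 at 12.0 (10.3 to 13.8), each step without overlap. Pde3a at 7.88 (6.28 to 9.27), Adra1b at 6.60 (3.34 to 9.56) and Adrb1 at 5.87 (3.20 to 9.33) overlapped with one another, and in GC Adra1b averaged 7.67 against 6.99 for Pde3a. Adra1a was lowest at 1.61 (0.321 to 2.25), below every Adrb1 library. The exon length is that of all annotated exons (11186 bases for Gnas, 12737 for Pde3a), so genes with long untranslated or alternative exons read low on this scale. The scale also counts reads that fitted several places. Only 19.1% of Gnas exon reads were unique, against 85.1% for Adcy6 and 100% for Adcy5. The place of Gnas above the cyclases therefore holds for total exon reads, and the order was not drawn up on unique reads.

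**Figure D4:**
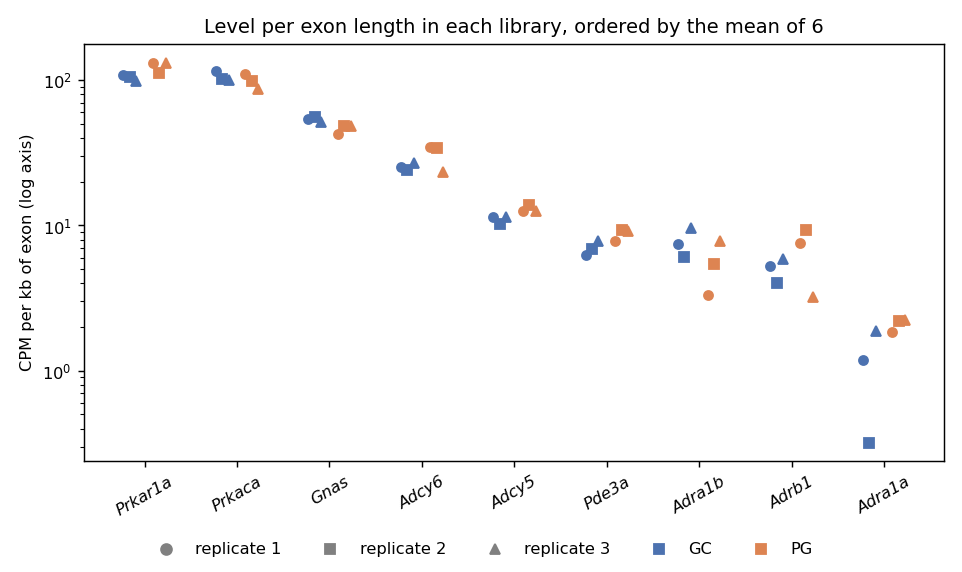
CPM per kb of exon (vertical log axis) of the 9 genes in each library, ordered by the mean over 6 libraries, with GC to the left and PG to the right within a gene. Levels run from about 100 for the PKA subunits down to 0.321 for Adra1a in GC replicate 2.

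The kinds of reads also differed among the 9. Introns held 65.6% of gene reads over the whole table but 0.319% for Prkar1a, 0.394% for Prkaca, 0.507% for Gnas, 2.50% for Adcy6 and 3.02% for Adcy5. The share was 7.53% for Pde3a and 7.87% for Adra1b, and highest for Adra1a at 19.8% (53 reads). Junction reads made up 13.8% to 14.3% of exon reads in Prkar1a, Prkaca and Adcy5, against 7.98% over all rows. Lars2 and Tmem38b held 45.5% to 52.5% of a library's exon reads, so these pooled all-row shares need not match a typical gene. Adra1a had 1 junction read in all. The 2491 exon bases of Adrb1 fill the whole span of its row, so its 0 intron and 0 junction reads follow from the annotation. Apart from Gnas, only Adcy6 had many reads that fitted several places, with 85.1% unique.

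The wider pathway was followed through 13 lists of 162 genes, of which 161 had a row and 120 were tested, these 9 included. Of the 111 tested genes outside the 9, 0 were called in edgeR, and 14 were higher and 5 lower in PG at an unadjusted p under 0.05, which is 17.1% against 10.4% of all tested genes. Their groups did not overlap in 19.8%, against 16.3% of all tested genes, and their median log2 fold change was 0.09. DESeq2 gave an adjusted p to 38 of them and called 6, against 5.58% of all genes with one: Cacna1c, Pln and Rgs5 higher, and Fxyd1, Hspb6 and Popdc2 lower.

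Phosphodiesterases had the highest median of the 13 lists, at 0.42 over 8 tested genes, with 6 positive, 0 called and 4 at an unadjusted p under 0.05. Pde3a is 1 of these, and of the other 7 there were 5 positive and 3 at an unadjusted p under 0.05, beside 49.8% and 10.4% of all tested genes. Pde4d, a cAMP phosphodiesterase tied to beta-receptor complexes, averaged 26.6 ± 3.78 CPM in the GC and 40.7 ± 4.25 in the PG libraries (SD, n = 3). Its log2 fold change was 0.61 ± 0.21 (SE; adjusted p 0.245, edgeR). Pde4a, the most read of them per length after the 9 genes were set aside, was at 76.3 ± 6.68 and 69.9 ± 8.23 CPM. Pde4b (0.83 ± 0.27) and Pde1c (0.70 ± 0.22) had larger log2 fold changes than Pde3a and no overlap of groups; both were picked out by these values. Their adjusted p-values were 0.210 and 0.190 (edgeR).

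Among the PKA list, 0 of 6 tested genes were called and the median was -0.07. Pkia, a peptide inhibitor of the catalytic subunit, averaged 77.9 ± 19.1 CPM in the GC and 100.4 ± 2.43 in the PG libraries (SD, n = 3), a log2 fold change of 0.35 ± 0.16 (SE). The regulatory subunit gene Prkar2a had a log2 fold change of -0.10 ± 0.15. Of 10 tested anchoring proteins, which tether PKA near its substrates, 0 were called with a median of 0.05: Akap6, of the nuclear envelope and dyad, was at 0.38 ± 0.15 and Akap1, of mitochondria, at -0.27 ± 0.14. Akap9, an anchoring protein of the Golgi and centrosome, was picked out by its values: it averaged 19.9 ± 3.01 CPM in the GC and 36.0 ± 1.11 in the PG libraries (SD, n = 3). Its log2 fold change was 0.84 ± 0.22 (SE; adjusted p 0.0778, edgeR), and the adjusted p was 0.0418 in edgeR with no low-count filter.

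The 11 tested PKA substrates of the cardiomyocyte had 0 calls in edgeR, with a median of -0.04. Pln, the phosphoprotein that brakes the calcium pump, averaged 1540.2 ± 263 CPM in the GC and 1993 ± 18.3 in the PG libraries (SD, n = 3), and Tnni3, cardiac troponin I, at 6153 ± 737 and 5259 ± 171. Only 2.65% of Pln reads fitted a single place. Nearest to the threshold in this list were 3 genes picked out by their values. Fxyd1, a regulator of the sodium pump, had a log2 fold change of -0.58 ± 0.15 (SE; adjusted p 0.0674, edgeR), and Hspb6, a small heat shock protein, -0.45 ± 0.13 (0.119). Cacna1c, the pore of the L-type calcium channel, had 0.48 ± 0.14 (0.129).

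In the remaining lists 0 genes were called. Of 15 tested G protein subunits 10 had positive values (median 0.14), with Gnai2, the inhibitory subunit that restrains cyclase, at -0.26 ± 0.15 (SE) and the beta subunit gene Gnb1 at -0.08 ± 0.15. The cyclase list had 4 positive of 6 (median 0.09), with Adcy9 at 0.09 ± 0.25 and Adcy4 at -0.45 ± 0.29. CREB factors and cAMP-responsive genes had 8 positive of 12 (median 0.19), with the metabolic coactivator gene Ppargc1a at 0.17 ± 0.16 and the CREB relative Atf1 at -0.38 ± 0.24. The Gq branch below the alpha-1 receptors had 6 of 13 (median -0.08), with the calcium-calmodulin kinase gene Camk2d at 0.04 ± 0.14 and Camk2g at -0.20 ± 0.25. Popdc2, a cAMP-binding membrane protein, averaged 355 ± 19.95 CPM in the GC and 278 ± 1.53 in the PG libraries (SD, n = 3), and Rap1b, a small GTPase of the cAMP-Epac branch, 22.7 ± 3.13 and 24.6 ± 1.39. Rgs5, a brake on G protein signals that is rich in pericytes, was at 249 ± 23.4 CPM in GC and 335 ± 36.8 in PG, while the summed level of 9 smooth muscle and pericyte markers, Rgs5 among them, was 819.96 to 946 CPM in GC and 911 to 940.5 in PG. Chrm2, the muscarinic receptor that opposes beta-adrenergic drive, was at 0.40 ± 0.19 on the log2 scale (SE), and Ramp2, a partner protein of peptide hormone receptors, was at -0.49 ± 0.33. Grk2, the kinase that desensitises the beta receptor, was at -0.13 ± 0.17. The phosphatase genes Ppp1ca (-0.30 ± 0.14) and Ppp2r1a (-0.31 ± 0.13) were lower in all 3 PG libraries than in any GC library.

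**Figure D5:**
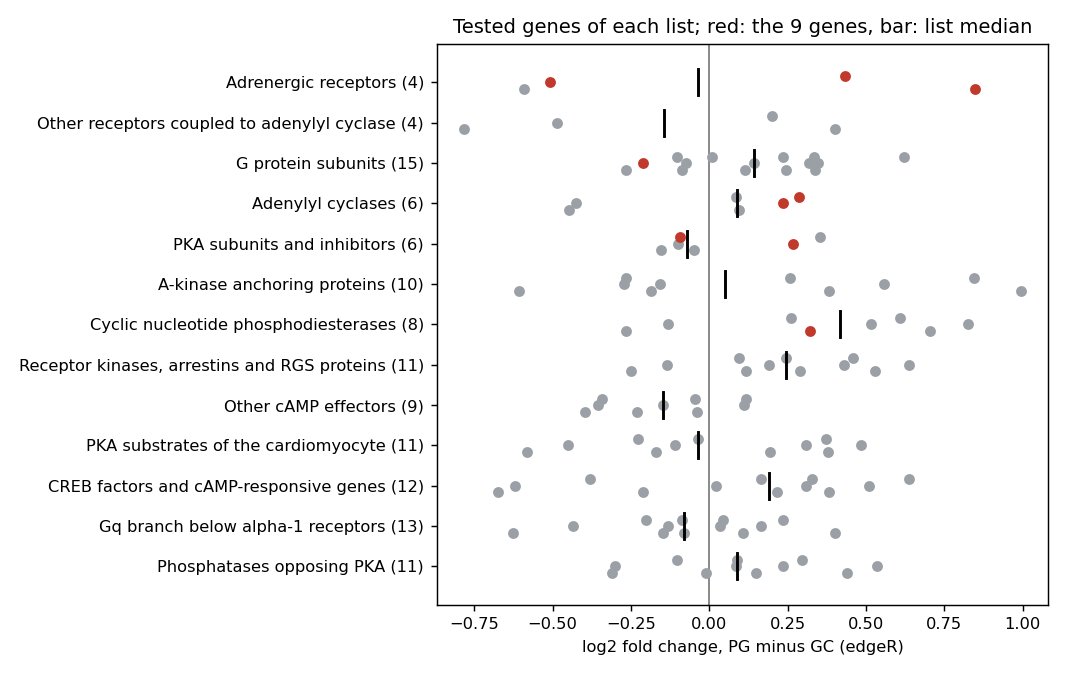
Log2 fold changes of PG minus GC (horizontal axis) of the 120 tested genes in 13 pathway lists, with the number tested in brackets, the 9 genes in red and a bar at each list's median. The medians run from -0.15 for other cAMP effectors to 0.42 for phosphodiesterases, and 0 genes were called.

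The library-by-library pattern of each of the 9 was set against those of the other 119 tested pathway genes, as the root-mean-square distance between centred log2 profiles over 6 libraries. The nearest were Mybpc3 to Prkaca (0.065, where the median distance was 0.33), Akap13 to Pde3a (0.066, median 0.32), Lipe to Adcy5 (0.091, median 0.30) and Tnni3 to Gnas (0.092, median 0.33). Prkar1a was nearest to Gna11 (0.12), Adcy6 to Ep300 (0.13), Adra1b to Plcb1 (0.21), Adrb1 to Pde7b (0.27) and Adra1a to Rgs3 (0.59). The distances were largest for the receptors, whose profiles rest on the fewest reads.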

How the data were processed

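The authors deposited 1 table of 49585 genes with raw counts per library of total and unique exon reads, gene reads, intron reads and exon-exon reads, per the file headers. No source used here names the aligner, the counter or a strand setting. The builds GRCm38 and mm10 are credited to the submitters' processing notes. Per the labels' protocols, lysates were freed of nuclei and mitochondria, digested with RNase I, spun through 50% sucrose and cut to fragments of 25 to 35 nt. The authors' deposited EDGE test gives a signed fold change, handled as a score, and p-values with and without FDR correction, quoted as theirs. The table holds 60 more per-library columns that played no part. Starts were shifted to count from 1.

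The main test on total exon reads used edgeR 4.0.16 under R 4.3.3 (TMM, filterByExpr at a minimum count of 10, glmQLFit and glmQLFTest, group as the only term), with Benjamini-Hochberg adjustment over all 9124 tested genes and a threshold of 0.05. Of 16855 genes with a read, the rest fell to the filter. Standard errors come from the F statistic and 95% intervals from the t distribution. The fit was tested on simulated counts. Ratios were compared by exact permutation over the 6 libraries; nearest profiles used log2(CPM + 0.5). Replicates differed beyond counting noise, with a chi-square per degree of freedom of 4.16 to 24.2. Same-numbered GC and PG libraries did not deviate together (correlations from -0.03 to -0.01). Such correlations cannot tell whether the numbers pair the libraries, and the labels do not say. The work began from the deposited counts and removed no PCR duplicates, so the counts may hold them. The Poisson interval given for 1 count covers counting error only.

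The members and lists were chosen with earlier results of these data known. Genes named are the 9 members, called pathway genes (0), the 2 most read others per list by reads per kb and the nearest profiles; others are said to have been named after their values were seen. These include the DESeq2 calls. The alternatives were unique exon reads, gene reads, DESeq2 1.42.0, library-size scaling, no filter, omission of Lars2 and Tmem38b, a replicate block and omission of each library. Pde2a was not analysed here.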

Additional observations from a re-analysis of the deposited data

How the results depend on the processing

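Under 13 other settings, 0 of the 9 genes were called in each, and all 117 of their log2 fold changes kept their sign. In DESeq2 the adjusted p of Adrb1, Adra1a and Adra1b was not given. Among all genes 53 were called, against 90 on unique exon reads, 181 with no low-count filter, 120 in DESeq2, and 19 to 102 with 1 library left out (19 without GC replicate 2, 102 without GC replicate 3, and 25 and 26 on leaving out PG replicates 1 and 2). With the replicate number as a block 22 were called, though whether the numbers pair the libraries is not known. The block cannot move the ratio differences (0.36, 0.03 and -1.76), because each number occurs once per group. With it the p of the exact test was 0.25 for Prkar1a over Prkaca and for Adra1b over Adra1a, against 0.10 without it. Each is the smallest p that its form of the test allows, so the rise from 0.10 to 0.25 does not measure a weaker difference. Library-size scaling gave 41 calls and moved the share of calls that were higher from 43.4% to 61.0%. Pathway list calls were 0, against 2 on unique reads (Fxyd1 and Hspb6), 3 with no filter, 6 in DESeq2 and 0 to 2 with a library left out, with 2 (Fxyd1 and Hspb6) without GC replicate 3. The Adcy6 over Adcy5 difference of 0.03 ran from -0.10 to 0.19 with a library left out, below 0 on leaving out GC replicate 1 or either of PG replicates 1 and 2; that of Prkar1a over Prkaca ran from 0.24 to 0.44 and that of Adra1b over Adra1a from -2.12 to -1.18. At 17 to 104 reads per library for Adrb1 and Adra1b, and 6 to 56 for Adra1a, depth limits what the receptors can show.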
